A study of Mus musculus with 4 samples.

Results

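The Cyp2b and Cyp3a genes encode cytochrome P450 enzymes that oxidise drugs, steroids and other lipophilic compounds in the liver. The 10 genes described here were chosen by name, as Cyp2b9, Cyp2b10 and Cyp2b13 of the Cyp2b family and Cyp3a11, Cyp3a13, Cyp3a16, Cyp3a25, Cyp3a41a, Cyp3a44 and Cyp3a59 of the Cyp3a family, among the 25655 genes of the table. They were chosen with earlier results of these data known, so counts of members set beside all genes are a description only. RNA-seq was performed on liver of male mice fed a high-fat diet (HFD) for 12 weeks from the age of 5 weeks. The HFD-WT group held 2 libraries of ADAR2+/+/GluR-B R/R mice and the HFD-KO group held 2 libraries of ADAR2-/-/GluR-B R/R mice. Both groups therefore carried the edited form of the glutamate receptor gene (GluR-B R/R), which lets mice without ADAR2 survive, and both came from intercrosses of heterozygotes on a B6129S background. No chow-fed library was analysed here. The labels do not say whether a library holds 1 mouse or several, and a figure legend of the study counts more mice per group than the libraries analysed here, so the p-values below measure the spread between libraries, which may be technical in part.

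In HFD-KO livers, the level of Cyp3a11 was 0.542 times and that of Cyp2b10 was 0.331 times the level in HFD-WT livers, and that of Cyp2b9 was 0.842 times. Both HFD-KO libraries lay below both HFD-WT libraries for each of these 3 genes, a pattern seen in 20.3% of all tested genes. The groups overlapped for the other 4 genes with enough reads to test, Cyp2b13, Cyp3a13, Cyp3a25 and Cyp3a59. No member had an adjusted p under 0.05 in edgeR's quasi-likelihood test, against 0.0771% of all tested genes, while 3 were lower before adjustment, against 4.73%. The remaining 3 genes had almost no reads.

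Transcription of some of these genes, Cyp2b10 and Cyp3a11 among them, is controlled in large part by 2 nuclear receptors. These are CAR (constitutive androstane receptor, encoded by Nr1i3) and PXR (pregnane X receptor, encoded by Nr1i2). Both sense foreign and endogenous compounds such as phenobarbital, steroids and bile acids, pair with RXR proteins and bind DNA at repeated hexamers related to AGGTCA. Cyp2b10 is the standard mouse readout of CAR, and Cyp3a11 is the standard readout of PXR and the usual mouse counterpart of human CYP3A4. Several relatives, among them Cyp2b9, Cyp2b13, Cyp3a41a and Cyp3a44, are known to be more highly expressed in female than in male mouse liver.

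The libraries held 24480798 to 28691330 counted reads, so that 3 reads, the limit that a count of 0 allows, corresponded to 0.105 to 0.123 CPM (reads per 1000000 counted reads). The CPM values of genes below were also scaled with TMM factors, which correct for differences in library composition. Adarb1, which encodes the targeted ADAR2 (ENSMUSG00000020262, chr10:77126560-77254104), had 15.7 and 19.8 CPM in HFD-WT and 6.23 and 9.54 CPM in HFD-KO replicates 1 and 2. Reads of the targeted gene thus remained in the HFD-KO libraries, with both below the HFD-WT libraries (log2 fold change -1.17, SE 0.20, edgeR adjusted p = 0.159). Hepatocyte genes such as Alb were abundant in every library. Fewer cells of a type and less RNA per cell cannot be told apart in such bulk samples.

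Compared per exon length (RPKM, the authors' reads per kilobase of exon, scaled by library total), Cyp3a11 was the most abundant of the 10 genes, with a mean of 429 RPKM over the 4 libraries. It was followed by Cyp3a25 (225 RPKM), Cyp2b9 (77.4 RPKM), Cyp3a13 (58.3 RPKM) and Cyp3a59 (16.2 RPKM). Cyp2b13 (3.02 RPKM) and Cyp2b10 (2.13 RPKM) were far lower, and Cyp3a44, Cyp3a41a and Cyp3a16 came last. The ranges of neighbours overlapped for Cyp2b9 and Cyp3a13 and for Cyp2b13 and Cyp2b10, each pair keeping its order in 3 of 4 libraries, and for every pair from Cyp2b10 downwards. The ranges of the other neighbours in this order did not overlap. In mean CPM, 116 of the 12967 tested genes lay above Cyp3a11, whereas 9524 lay above Cyp2b10.

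**Figure D1:**
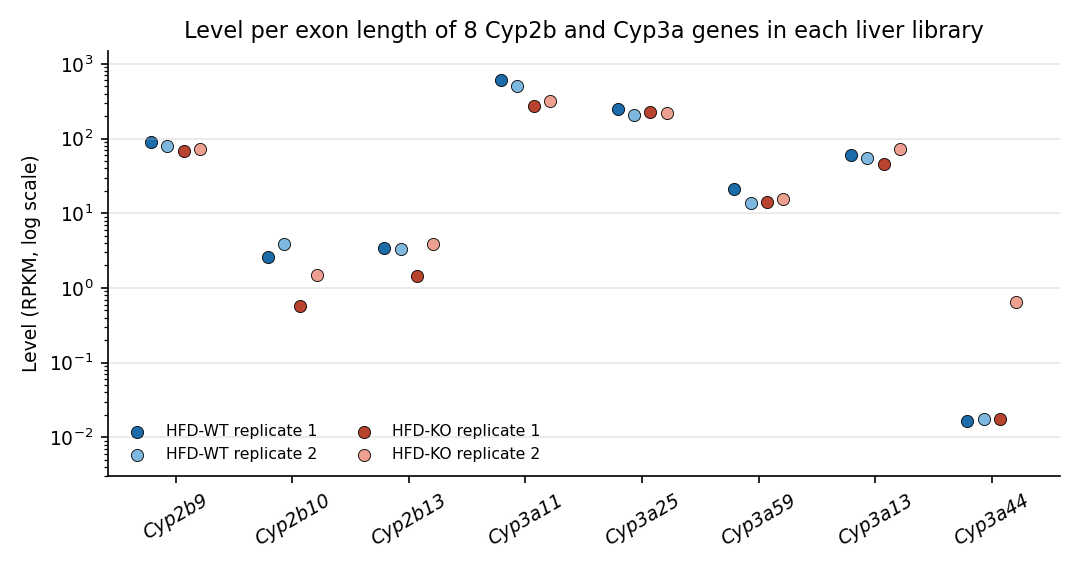
Level per exon length (RPKM, log axis) of 8 Cyp2b and Cyp3a genes, with 1 point for each of the 4 libraries; Cyp3a16 and Cyp3a41a are left out because they have libraries at 0. The HFD-KO points lie below the HFD-WT points for Cyp3a11, Cyp2b10 and Cyp2b9, and Cyp3a44 has more than 1 read in HFD-KO replicate 2 alone.

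The first question was whether loss of ADAR2 went with different levels of the Cyp2b genes. Cyp2b9, Cyp2b10 and Cyp2b13 lie on the plus strand of chromosome 7, between positions 25597045 and 25910086 of the table's GRCm39 annotation. The sequences just upstream of their starts are shown because Cyp2b9 and Cyp2b13 are nearly the same there, whereas their RNA levels are not. They come from RefSeq on GRCm38.p6 and run 5′ to 3′ on the plus strand, ending before the first annotated transcript base in GENCODE M21. The search for AGGTCA and AGTTCA, 2 forms of the nuclear receptor hexamer, covered both strands of the 250 bases before the RefSeq start. Matches are in capitals.
Cyp2b9 (chr7:26173159-26173408): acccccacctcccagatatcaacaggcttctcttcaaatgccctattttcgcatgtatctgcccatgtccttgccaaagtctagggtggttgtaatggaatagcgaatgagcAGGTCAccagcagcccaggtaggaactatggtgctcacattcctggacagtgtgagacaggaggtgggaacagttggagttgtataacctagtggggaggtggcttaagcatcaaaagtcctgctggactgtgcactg
Cyp2b13 (chr7:26061245-26061494): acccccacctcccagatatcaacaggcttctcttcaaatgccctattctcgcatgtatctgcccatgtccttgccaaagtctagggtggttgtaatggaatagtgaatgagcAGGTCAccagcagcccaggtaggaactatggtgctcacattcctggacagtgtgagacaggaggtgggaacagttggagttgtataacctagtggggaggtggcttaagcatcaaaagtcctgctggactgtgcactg
Cyp2b10 (chr7:25897408-25897619): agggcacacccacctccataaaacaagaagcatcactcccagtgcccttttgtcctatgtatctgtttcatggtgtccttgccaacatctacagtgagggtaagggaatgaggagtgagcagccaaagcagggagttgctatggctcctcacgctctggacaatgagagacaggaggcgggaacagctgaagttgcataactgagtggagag
Cyp2b9 and Cyp2b13 differ at 2 of 250 bases, T48C and C104T (the Cyp2b9 base, the position counted from 1 at the 5′ end, then the Cyp2b13 base), which is 99.2% identity. Each holds AGGTCA at position -138 from the start. Cyp2b10 shares 69.7% of aligned positions with Cyp2b9 over the 250-base windows and holds no exact match to either hexamer there. Sequence outside these windows was not searched, so the absence says nothing about receptor sites of Cyp2b10 elsewhere. Of 32851 RefSeq windows of 250 bases, 14.02% hold AGGTCA and 24.2% hold AGGTCA or AGTTCA.

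Cyp2b10 (ENSMUSG00000030483, chr7:25597045-25626049), the phenobarbital-inducible member, had 155 and 219 reads in HFD-WT and 32 and 77 reads in HFD-KO replicates 1 and 2. These were 5.35 and 7.96 CPM in HFD-WT and 1.22 and 3.22 CPM in HFD-KO. Both HFD-KO libraries were low, with HFD-KO replicate 1 the lowest and HFD-WT replicate 2 the highest. The log2 fold change was -1.60 (95% interval -2.54 to -0.65, SE 0.40, n = 2 per group), and 16 of the 12967 tested genes had a more negative one. Cyp2b10 passed the edgeR quasi-likelihood test before adjustment (unadjusted p = 0.00507) but not after it (adjusted p = 0.329). Among 9 alternative settings the log2 fold change ran from -2.45 to -1.04 and the adjusted p fell below 0.05 in 4, namely with no low-count filter (0.0255), with DESeq2 (0.0179), without HFD-KO replicate 1 (0.0088) and without HFD-KO replicate 2 (2.7e-06), and it reached 0.9998 without HFD-WT replicate 2.

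Cyp2b9 (ENSMUSG00000040660, chr7:25872836-25910086), which carried most Cyp2b transcripts, had 183 and 158 CPM in HFD-WT and 138 and 149 CPM in HFD-KO. The nearest libraries of the groups, HFD-WT replicate 2 and HFD-KO replicate 2, were close to each other. The log2 fold change was -0.25 (95% interval -0.48 to -0.02, SE 0.10), with an unadjusted p of 0.0370 and an adjusted p of 0.515 in edgeR's test. Leaving out HFD-WT replicate 1 gave -0.15 and leaving out HFD-KO replicate 1 gave -0.19. The value was -0.35 without HFD-WT replicate 2 and -0.30 without HFD-KO replicate 2.

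Cyp2b13 (ENSMUSG00000040583, chr7:25760922-25795622) had 6.80 and 6.65 CPM in HFD-WT and 2.96 and 8.08 CPM in HFD-KO. The HFD-KO libraries lay on either side of the HFD-WT libraries. The log2 fold change was -0.29 (95% interval -1.20 to 0.61, edgeR adjusted p = 0.858), and this sign depended on HFD-KO replicate 1: it was 0.26 without that library and -1.18 without HFD-KO replicate 2 (edgeR adjusted p = 0.0020). Of the 100-base windows of its transcript, 9.29% also occur in another gene, mostly in Gm45225, and 1.18% of those of Cyp2b9 do. Spread evenly, the Cyp2b9 reads in the stretches shared with Cyp2b13 would number 42 to 63 per library, beside 78 to 197 reads counted for Cyp2b13, whose level is uncertain for that reason. No 100-base window of Cyp2b10 occurs in another gene.

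Within the Cyp2b family, Cyp2b9 made up 93.8% and 91.7% of the summed RPKM in HFD-WT and 97.1% and 93.0% in HFD-KO. Cyp2b10 made up 2.65% and 4.46% in HFD-WT and 0.825% and 1.94% in HFD-KO. The family sum followed Cyp2b9, with 195 and 173 CPM in HFD-WT and 142 and 160 CPM in HFD-KO (log2 ratio of the group means -0.28). The ratio of Cyp2b10 to Cyp2b13 RPKM, which does not depend on the scaling between libraries, was 0.759 and 1.15 in HFD-WT and 0.396 and 0.385 in HFD-KO. Of all single genes tested, 20.3% lay below in HFD-KO without overlap, and no such share was computed for ratios. This ratio holds Cyp2b10, so it is not separate from the lower level of that gene. The level of Cyp2b13, its other part, is uncertain. The ratio of Cyp2b9 to Cyp2b13 was 26.8 and 23.8 in HFD-WT and 46.6 and 18.4 in HFD-KO, so the groups overlapped there. With 2 libraries per group, an exact permutation test of such a ratio cannot give a two-sided p below 0.333.

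The second question concerned the Cyp3a genes. Of the 7, all but Cyp3a13 lie together on chromosome 5 between positions 145373119 and 146050097, and Cyp3a13 lies apart on the same chromosome. The upstream sequences of Cyp3a11 and Cyp3a25 are shown because, of these 2 most abundant members, the groups overlapped for Cyp3a25 and not for Cyp3a11. Both are given 5′ to 3′ on the minus strand, from the same source and with the same marking as above. That of Cyp3a11 is shorter because 110 bases of its window lie in a GENCODE transcript.
Cyp3a11 (chr5:145879965-145880104): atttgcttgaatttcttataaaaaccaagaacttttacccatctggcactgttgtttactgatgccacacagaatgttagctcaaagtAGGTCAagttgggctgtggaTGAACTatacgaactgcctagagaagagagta
Cyp3a25 (chr5:146009619-146009868): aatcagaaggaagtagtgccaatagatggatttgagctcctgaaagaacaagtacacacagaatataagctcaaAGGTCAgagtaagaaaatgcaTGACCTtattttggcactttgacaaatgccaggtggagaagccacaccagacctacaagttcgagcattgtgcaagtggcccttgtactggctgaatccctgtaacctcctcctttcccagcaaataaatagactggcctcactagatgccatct
Cyp3a11 holds AGGTCA at -162 and the reverse complement of AGTTCA at -142 from the RefSeq start. Cyp3a25 holds AGGTCA at -176 and its reverse complement at -155. The 250-base windows of Cyp3a11 and Cyp3a25 are 53.1% identical, and those of Cyp3a25 and Cyp3a59 are 95.6% identical.

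Cyp3a11 (ENSMUSG00000056035, chr5:145791236-145816774) had 44769 and 34740 reads in HFD-WT and 18187 and 19857 reads in HFD-KO replicates 1 and 2. These were 1545 and 1262 CPM in HFD-WT and 691 and 831 CPM in HFD-KO. Every HFD-KO value was below every HFD-WT value, and the gap between the groups was wider than the distance between the libraries of either group. The log2 fold change was -0.88 (95% interval -1.21 to -0.56, SE 0.14, n = 2 per group), or a level 1.85 times as high in HFD-WT. Of the 12967 tested genes, 33 had a smaller p than Cyp3a11 (edgeR unadjusted p = 0.000322, adjusted p = 0.115). The log2 fold change lay between -1.02 and -0.74 in 9 alternative settings, and the adjusted p was below 0.05 in 4 of them, with no low-count filter (0.0018), with DESeq2 (1.2e-07), without HFD-KO replicate 1 (8.1e-06) and without HFD-KO replicate 2 (1.0e-07), and highest without HFD-WT replicate 1 (0.381). Of the 4948 windows of 100 bases in its 2 transcripts, pooled, only 0.142% occur in another gene.

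Cyp3a25 (ENSMUSG00000029630, chr5:145914004-145946428), a constitutive liver member, had 539 and 434 CPM in HFD-WT and 494 and 485 CPM in HFD-KO. The HFD-KO values fell between the HFD-WT values, with a log2 fold change of 0.01 (95% interval -0.27 to 0.28, edgeR adjusted p = 0.989). Cyp3a59 (ENSMUSG00000061292, chr5:146016067-146050097), whose transcript is 97.0% identical to that of Cyp3a25, had 45.9 and 29.3 CPM in HFD-WT and 30.6 and 34.2 CPM in HFD-KO. Its log2 fold change was -0.21 (95% interval -0.66 to 0.24, edgeR adjusted p = 0.786) and turned to 0.14 without HFD-WT replicate 1, the highest library. The sign for Cyp3a25 was not fixed either, at -0.14 without HFD-WT replicate 2. Cyp3a25 and Cyp3a59 share 148 windows of 100 bases with each other, 6.79% and 7.39% of their own. Spread evenly over its windows, the Cyp3a25 reads in the shared stretches would number 786 to 1059 per library, beside 805 to 1329 reads counted for Cyp3a59, so the level of Cyp3a59 is uncertain as a whole.

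Cyp3a13 (ENSMUSG00000029727, chr5:137891194-137919881), which is expressed in intestine as well as in liver, had 189 and 173 CPM in HFD-WT and 147 and 238 CPM in HFD-KO. The HFD-KO libraries held both the lowest and the highest value. The log2 fold change was 0.09 (95% interval -0.38 to 0.56, edgeR adjusted p = 0.927), and it was 0.40 without HFD-KO replicate 1 (edgeR adjusted p = 0.0088) and -0.30 without HFD-KO replicate 2 (edgeR adjusted p = 0.109). Of 7 small intestine markers, Lct, Sis and Alpi had 0 reads in every library, Vil1, Muc2 and Olfm4 had at most 0.173 CPM, and Fabp2 had 119 to 127 CPM with overlapping groups.

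The 3 members that did not reach the low-count filter are known from female or fetal liver. Cyp3a16 (ENSMUSG00000038656, chr5:145373119-145406533) had 0 reads in every library. Cyp3a41a (ENSMUSG00000075551, chr5:145630859-145656946) had 0 and 3 reads in HFD-WT and 2 and 0 reads in HFD-KO, and 90.8% of its 100-base windows occur in another gene, mostly in Cyp3a41b, which had 1 read in all. Cyp3a44 (ENSMUSG00000054417, chr5:145710793-145742684) had 1 read in each HFD-WT library, 1 read in HFD-KO replicate 1 and 34 reads in HFD-KO replicate 2. The 34 reads are 1.39 CPM of the unscaled total (95% exact Poisson interval 0.962 to 1.94, counting error only), so that the level stood above the other libraries in 1 HFD-KO library and not in the other. Of its 100-base windows, 5.37% occur in another gene, some in Cyp3a11. Spread evenly over the 4948 pooled windows of its 2 transcripts, the Cyp3a11 reads in the stretches shared with Cyp3a44 would number 45 and 35 in HFD-WT. In HFD-KO replicates 1 and 2 they would number 18 and 20. Reads from 1 transcript alone would be spread over fewer windows, so these numbers are rough. Their part in the Cyp3a44 counts was not tested. Of the remaining family genes of the table, Cyp2b19 and Cyp2b23 had 0 reads, and Cyp3a57 had 8 and 8 reads in HFD-WT and 2 and 4 reads in HFD-KO.

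The make-up of the Cyp3a transcripts was then compared within each library. Cyp3a11 accounted for 64.9% and 65.02% of the summed Cyp3a RPKM in HFD-WT and for 48.6% and 51.01% in HFD-KO. The share of Cyp3a25 was 26.5% and 26.2% in HFD-WT and 40.7% and 34.8% in HFD-KO, and that of Cyp3a13 was 6.31% and 7.05% in HFD-WT and 8.20% and 11.6% in HFD-KO. Shares sum to a fixed total, so a lower share of Cyp3a11 raises the others. The ratio of Cyp3a11 to Cyp3a25 RPKM was 2.45 and 2.49 in HFD-WT and 1.20 and 1.46 in HFD-KO, a difference of -0.90 on the log2 scale. The ratio of Cyp3a11 to Cyp3a13 was 10.3 and 9.23 in HFD-WT and 5.93 and 4.40 in HFD-KO. Neither ratio overlapped between the groups. Of all single genes tested, 20.3% lay below and 20.5% above without overlap, and no such share was computed for ratios. Both ratios hold Cyp3a11, so they restate its lower level and are not separate results. The summed Cyp3a level was 2320 and 1898 CPM in HFD-WT and 1362 and 1590 CPM in HFD-KO (log2 ratio of the group means -0.52).

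**Figure D2:**
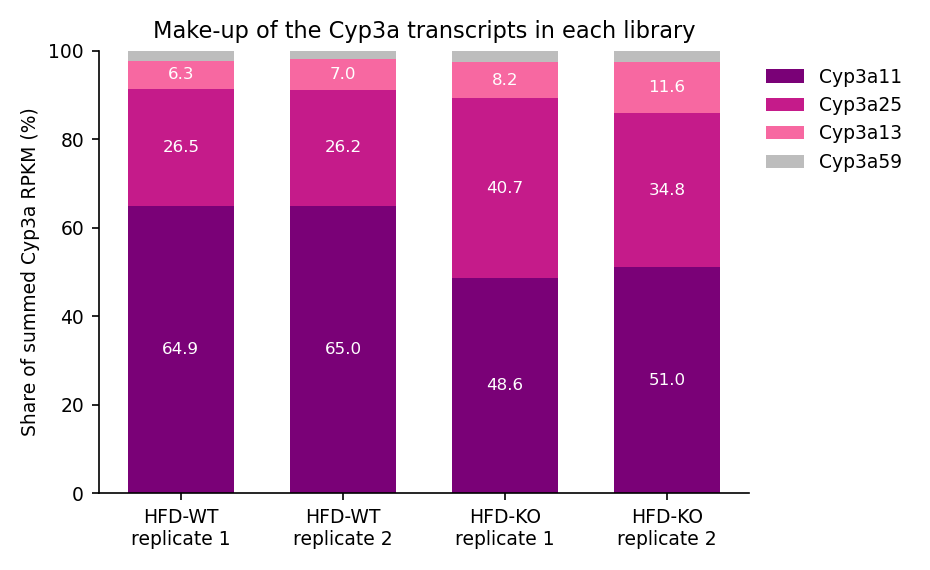
Share of Cyp3a11, Cyp3a25, Cyp3a13 and Cyp3a59 in the summed Cyp3a RPKM (percent, stacked bars from 0 to 100), with 1 bar per library. Cyp3a16, Cyp3a41a and Cyp3a44 count in the sum but are not drawn. The dark block at the base, Cyp3a11, is 64.9% and 65.02% of the HFD-WT bars but 48.6% and 51.01% of the HFD-KO bars.

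Of the 10 members, 7 were tested. None had an adjusted p under 0.05 in edgeR's test, against 0.0771% of all tested genes, and 2, Cyp3a11 and Cyp2b10, did in DESeq2, against 0.887%. At an unadjusted p under 0.05 in edgeR's test, 3 members were lower in HFD-KO (Cyp3a11, Cyp2b10 and Cyp2b9), against 4.73% of all tested genes, and 0 were higher, against 4.25%. Both HFD-KO libraries lay below both HFD-WT libraries for the same 3 members, against 20.3% of all tested genes, and above them for 0, against 20.5%. By family, 2 of 3 Cyp2b genes and 1 of 4 tested Cyp3a genes were lower, with median log2 fold changes of -0.29 and -0.10 beside 0.01 over all tested genes. The members are related and mostly neighbouring genes, so they are not separate replicates. They were also chosen with earlier results of these data known, so these counts are not a test of the families.

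**Figure D3:**
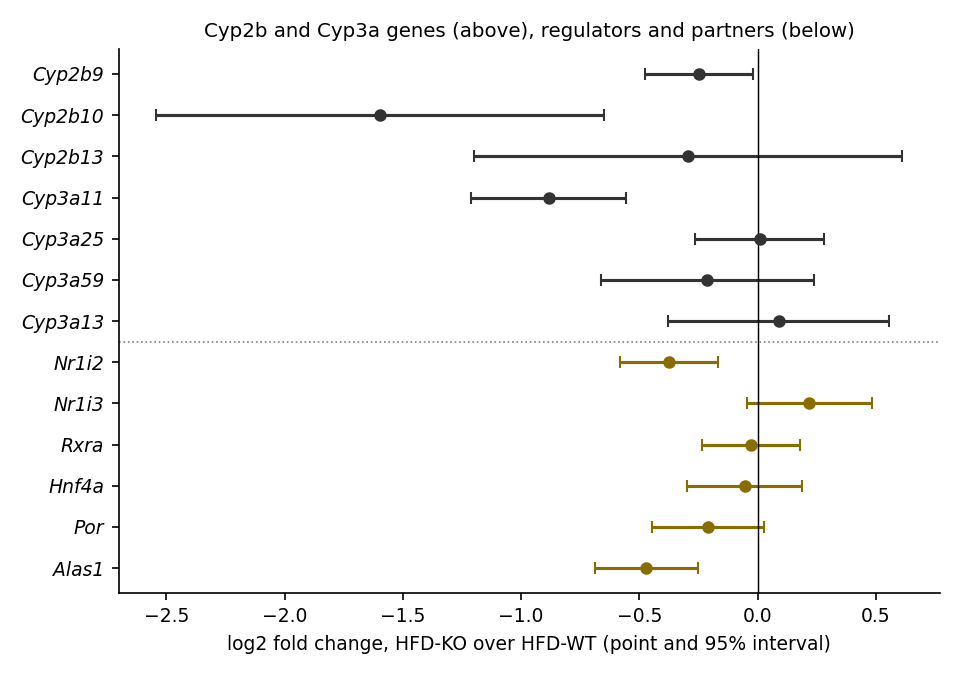
Log2 fold change of HFD-KO over HFD-WT with its 95% interval (edgeR, 2 libraries per group) for the 7 tested Cyp2b and Cyp3a genes, above the dotted line, and for receptors, partners and enzymes that serve them, below it. The intervals of Cyp3a11, Cyp2b10, Cyp2b9, Nr1i2 and Alas1 lie below 0 before any adjustment for the number of genes.

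Genes around the clusters were examined next. Within 500 kb of the Cyp2b genes, 14 other genes were tested, with a median log2 fold change of 0.06. At an unadjusted edgeR p under 0.05, 0 were higher and 2 lower, against 4.25% and 4.73% of all tested genes. One of these 2 was Cyp2a4, a steroid 15-alpha-hydroxylase, at -1.21. Within 500 kb of the Cyp3a cluster on chromosome 5, 15 other genes were tested, with 0 higher and 1 lower and a median of 0.01, and their log2 fold changes spanned -0.26 to 0.20. The value of Cyp3a11 lay outside that span.

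The receptors PXR and CAR and their partners were compared in the same fit. Nr1i2, encoding PXR, had 108 and 114 CPM in HFD-WT and 81.0 and 90.0 CPM in HFD-KO. The HFD-KO libraries were below the HFD-WT libraries (log2 fold change -0.38, SE 0.09), with an unadjusted p of 0.00341 and an adjusted p of 0.271 in edgeR's test. Nr1i3, encoding CAR, had 398 and 365 CPM in HFD-WT and 485 and 403 CPM in HFD-KO. Its HFD-KO values lay above its HFD-WT values but did not pass even before adjustment (log2 fold change 0.22, SE 0.11, edgeR unadjusted p = 0.0920). RXR alpha, the shared partner encoded by Rxra, had 509 and 541 CPM in HFD-WT and 523 and 506 CPM in HFD-KO. Hnf4a, a hepatocyte factor that acts on both families, had 662 and 653 CPM in HFD-WT and 585 and 681 CPM in HFD-KO. Of the 17 receptors, partners, chaperones and cofactors listed, 0 were higher and 1, Nr1i2, was lower at an unadjusted edgeR p under 0.05. Over all tested genes these shares were 4.25% and 4.73%, so 1 lower gene of 17 lies near the share over all genes. The median log2 fold change of the 17 was 0.03.

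P450 enzymes need electrons and heme. Por, which encodes the reductase that passes electrons to them, had 423 and 411 CPM in HFD-WT and 332 and 388 CPM in HFD-KO (log2 fold change -0.21, SE 0.10, edgeR unadjusted p = 0.0746). Alas1, the rate-limiting enzyme of heme synthesis and itself a CAR and PXR target, had 876 and 820 CPM in HFD-WT and 626 and 597 CPM in HFD-KO. Both HFD-KO libraries of Alas1 were lower (log2 fold change -0.47, SE 0.09, edgeR unadjusted p = 0.00125, adjusted p = 0.224). Cyb5r3, the cytochrome b5 reductase, had a log2 fold change of -0.29 (edgeR unadjusted p = 0.0399). Among 6 genes of electron and heme supply, these last 2 were lower, against 4.73% of all tested genes. None, that is 0, were higher, against 4.25%, and the median was -0.15.

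The other genes known to respond to CAR or PXR did not share 1 direction. Of 35 listed, 34 were in the table and 32 were tested, with a median log2 fold change of -0.15. At an unadjusted edgeR p under 0.05, 5 were higher and 9 lower, against 4.25% and 4.73% of all tested genes. Gstm3 and Gsta1, glutathione transferases that conjugate electrophiles, were lower with log2 fold changes of -1.35 (edgeR adjusted p = 0.0235) and -1.77 (edgeR adjusted p = 0.0288). Gsta1 had 22.6 and 26.6 CPM in HFD-WT and 8.51 and 5.86 CPM in HFD-KO. Cyp2c54, a fatty acid epoxygenase, was higher, with 51.5 and 37.5 CPM in HFD-WT and 129 and 108 CPM in HFD-KO (log2 fold change 1.41, edgeR adjusted p = 0.0456). Cyp2a4 had 21.2 and 18.9 CPM in HFD-WT and 9.95 and 7.37 CPM in HFD-KO (log2 fold change -1.21, edgeR adjusted p = 0.0578). The other genes that passed before adjustment were Gsta2, Gstm1, Gstm2, Slco1a4, Abcb1a and Ces2c, all lower, and Cyp2c29, Cyp2c37, Cyp2c50 and Gadd45b, all higher. Thus the value of Cyp3a11 lay within the span of this list, from -1.77 to 1.41, and so did that of Cyp2b10.

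**Figure D4:**
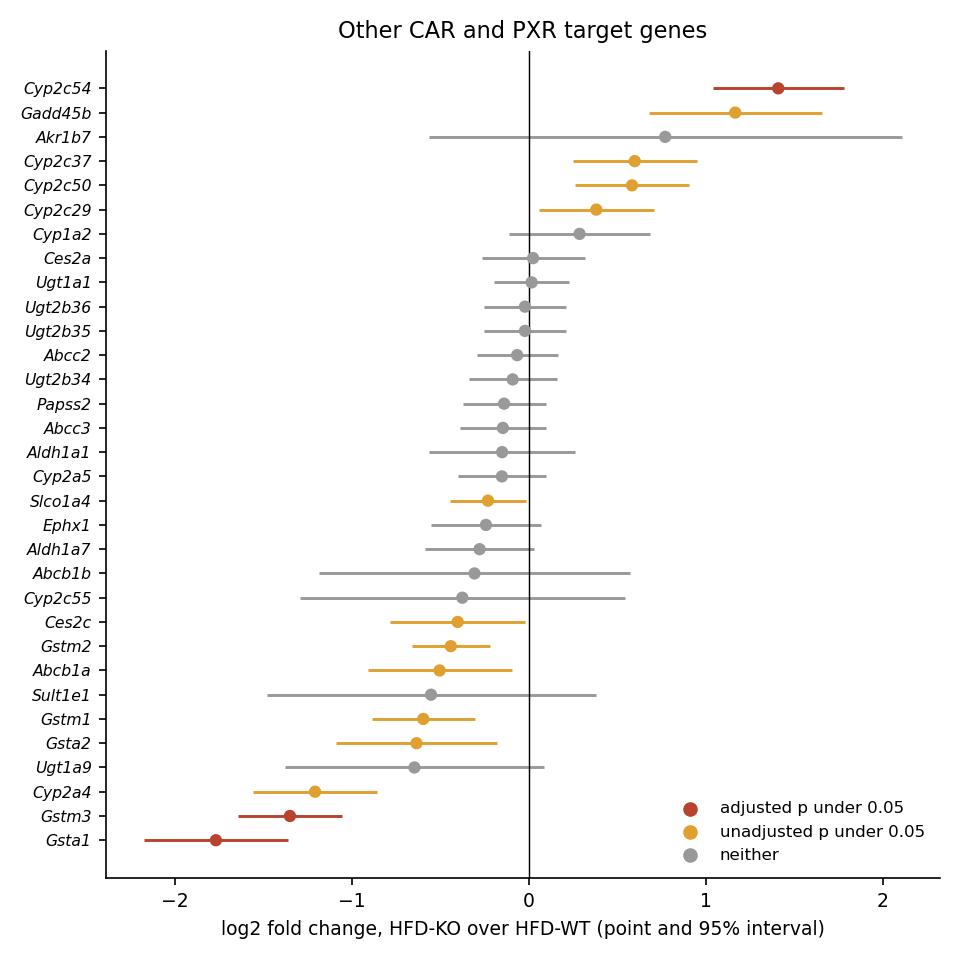
Log2 fold change of HFD-KO over HFD-WT with its 95% interval (edgeR, 2 libraries per group) for 32 other genes known to respond to CAR or PXR, coloured by the p they reached. The values run from -1.77 for Gsta1 to 1.41 for Cyp2c54, with 5 genes higher and 9 lower at an unadjusted p under 0.05.

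Since several members differ between the sexes, lists of sex-biased liver genes were read in the same libraries. Of 18 female-biased genes, 14 were tested, with a median log2 fold change of 0.59. At an unadjusted edgeR p under 0.05, 8 were higher and 2 lower, against 4.25% and 4.73% of all tested genes. The lowest unadjusted p values among them belonged to Cyp2a4, Nipal1 (log2 fold change 1.18, edgeR adjusted p = 0.0832), Cyp2c69 and Slc22a26. HFD-KO replicate 2, the library that held the Cyp3a44 reads, was the highest library for 7 of the 14 tested genes and the lowest for 3. Examples named after their values were seen are Cux2 and Cyp2c40, at 10.4 and 8.45 CPM there against at most 1.48 CPM in the others, and Cyp2a4, Hao2 and Rtn4, which were lowest there at 7.37, 1.05 and 99.6 CPM. The log2 fold changes of Cyp2b9 and Cyp2b13, which belong to the female-biased genes as well, were -0.25 and -0.29. Of 18 male-biased genes, 17 were tested, 6 were higher and 0 lower, with a median of 0.27. Slco1a1, an organic anion transporter, was higher (log2 fold change 1.69, edgeR adjusted p = 0.0013). Susd4 and Serpina1e had log2 fold changes of 0.77 and 2.81 without passing after adjustment. Hsd3b5, a steroid dehydrogenase, had 0.483 and 0.472 CPM in HFD-WT and 25.8 and 2.51 CPM in HFD-KO, and its log2 fold change of 4.88 was 2.38 without HFD-KO replicate 1.

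Markers of liver zones and of other cell types were read beside these results, at an unadjusted edgeR p under 0.05. Of all tested genes, 4.25% were higher and 4.73% lower at that p. Cyp3a11, Cyp2b9 and Cyp2b10 are known to be expressed mainly around the central vein. Of 11 pericentral genes 1 was higher and 0 lower, with sums from 12763 to 14889 CPM in HFD-WT and from 13582 to 15168 CPM in HFD-KO, and of 10 periportal genes 0 were higher and 3 lower. Of 7 hepatocyte genes 1 was higher and 0 lower, with sums from 80419 to 80878 CPM in HFD-WT and from 82382 to 94395 CPM in HFD-KO. Macrophage markers were lower in 9 of 12, with sums from 490 to 615 CPM in HFD-WT and from 381 to 400.4 CPM in HFD-KO, and stellate cell markers in 5 of 9, with sums from 416 to 470 CPM and from 299 to 367 CPM. B and plasma cell markers were higher in 3 of 7, with 124 CPM in HFD-KO replicate 1 and 15.7 to 19.0 CPM in the other libraries, and red blood cell markers in 3 of 5, with sums from 600.2 to 757 CPM in HFD-WT and from 810.4 to 1146 CPM in HFD-KO. Endothelial and cholangiocyte markers were lower in 1 of 10 and 1 of 5 tested. Of 6 T and NK cell markers 0 were higher and 0 lower, with a sum of 7.52 CPM in HFD-KO replicate 1 and 2.59 to 3.89 CPM in the other libraries. The part of these zones and cell types in the Cyp2b and Cyp3a values was not tested.

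The genes most like the tested member of each family with the largest absolute log2 fold change, Cyp2b10 and Cyp3a11, were found over the 4 libraries by the root mean square distance of centred log2 CPM. For Cyp2b10 these were Fkbp5 (0.159), Adarb1 (0.183) and Ntrk2 (0.220). Fkbp5, a co-chaperone of steroid receptors, had 88.6 and 163 CPM in HFD-WT and 40.1 and 68.5 CPM in HFD-KO, with HFD-WT replicate 2 highest and HFD-KO replicate 1 lowest, as for Cyp2b10. For Cyp3a11 the nearest genes were Tdg (0.0990), Rnf150 (0.0994) and Cd63 (0.131). Tdg and Cd63 lie on chromosome 10, as does Adarb1, the targeted gene, and Rnf150 lies on chromosome 8. The root mean square distances rest on 4 libraries and are a description only.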

How the data were processed

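RNA was extracted from mouse liver with TRIzol, and the authors prepared libraries with a directional kit, sequenced paired ends on a DNBSEQ-G400RS, aligned the reads with an MGI tool and quantified them in Partek with GENCODE annotation. Tool versions, and how strand and multiply aligned reads were handled in counting, are not given in the sources used here. The labels list the builds GRCm39 and mm10, the methods name mm10, and the gene positions in the table are those of GRCm39. The deposited read counts are raw whole numbers per gene, and they alone were tested. The authors' RPKM values, counts scaled by exon length and library total, were used for levels between genes. The deposited TPM values were not used, and the deposited values called CPM were treated as a score and not used. All CPM values here were computed from the counts.

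Counts of 4 libraries were filtered (filterByExpr, minimum count 10), scaled by TMM and tested with edgeR 4.0.16 (limma 3.58.1, R 4.3.3), as HFD-KO against HFD-WT with no covariate, by the quasi-likelihood test, with p-values adjusted after Benjamini and Hochberg over 12967 genes. The SE is the log2 fold change divided by the root of F, and the interval uses the t distribution. DESeq2 1.42.0 was an alternative, as were its size factors, library size alone, no filter, a replicate block and leaving out each library. The script was tested on simulated data. Sequences were read from RefSeq promoters (GRCm38.p6) and GENCODE M21 transcripts in Python 3.11.15. Members and lists were chosen with earlier results of these data known. The genes named are every member, Adarb1, Nr1i2, Nr1i3, Rxra, Hnf4a and Por, from each other list any gene with adjusted p under 0.05 and up to 4 with the smallest unadjusted p under 0.05, and the 3 genes nearest to the tested member of each family with the largest absolute log2 fold change. Further genes were named after their values were seen, to list the members of a count. Both groups carry replicate numbers 1 and 2, and no source says that these pair the libraries.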

Additional observations from a re-analysis of the deposited data

How the results depend on the processing

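The log2 fold changes of Cyp3a11, Cyp2b10 and Cyp2b9 stayed below 0 in all 9 alternatives. The log2 ratio of the summed CPM, recomputed in 6 of these, lay between -0.37 and -0.19 for Cyp2b and between -0.65 and -0.36 for Cyp3a. The number of members with an adjusted p under 0.05, 0 in the main analysis, was 2 with no low-count filter and 2 with the DESeq2 Wald test, and 0 to 4 when 1 library was left out. With no filter 1 member, Cyp3a44, was higher at an unadjusted p under 0.05, and leaving out 1 library gave 0 to 2 higher and 2 to 5 lower members, while the share of all genes higher and lower went from 1.92% and 1.56% without HFD-WT replicate 2 to 8.25% and 8.12% without HFD-KO replicate 1. Over all genes, 10 had an adjusted p under 0.05, against 6 with library size alone, 162 (0.936%) with no filter, 115 (0.887%) with DESeq2 and 0 to 705 when 1 library was left out (0 without HFD-WT replicate 2, 5.31% without HFD-KO replicate 1 and 3.08% without HFD-KO replicate 2). A fit without 1 library leaves a group of 1, whose spread is assumed to be that of the other group. The sign of Cyp3a25 turned with library size alone (-0.037), without HFD-WT replicate 2 (-0.14) and without HFD-KO replicate 1 (-0.0038), where the leave-one-out range was -0.14 to 0.17. The ranges were -1.18 to 0.26 for Cyp2b13, -0.30 to 0.40 for Cyp3a13 and -0.50 to 0.14 for Cyp3a59. The cause of these changes was not tested.

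The replicate block raised the count of all genes with an adjusted p under 0.05 to 20 (0.154%) and left 0 members there. At an unadjusted p under 0.05 it left 2 of the 3 lower members, against 3.93% of all genes. Cyp2b9 was then at an edgeR unadjusted p = 0.0594. Deviations of same-numbered libraries from their group means had a correlation of -0.0764 over 12967 genes. A single value over all genes cannot show whether same-numbered libraries shared a batch that moved some genes, so pairing stayed unsettled. The depth limits statements on Cyp3a16 and Cyp3a41a, whose counts of 0 to 3 reads allow no comparison. Cyp3a44 had 34 reads in HFD-KO replicate 2 and 1 read in each other library. A difference between the groups would thus rest on 1 library.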
